A study of Caenorhabditis elegans with 12 samples.

Results

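The 6 vitellogenin loci of *Caenorhabditis elegans*, *vit-1* to *vit-6*, were described across 12 RNA sequencing libraries of whole worms. The members were the rows of the count table whose gene symbol held 1 of these 6 names, which gave 6 of the 41420 loci listed, each row holding a single gene. All 6 passed the filter on low counts and were among the 15403 loci tested. The libraries came from L4 larvae, either wild type N2 or *osm-9(ok1677)*, grown at 20 °C and kept for 6 h on control (51 mM NaCl) or hypertonic stress (200 mM NaCl) agar plates. There were 2 N2 and 4 *osm-9(ok1677)* libraries at each concentration. *osm-9* encodes a TRPV channel subunit of sensory neurons, and *ok1677* is a deletion carried here by a single strain. The methods describe this strain as slightly delayed in development, state that staging allowed for the delay, and report no molting worms or gravid adults when the plates were inspected after the exposure. Replicates are described there as independent experiments.

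Vitellogenins are large lipid-binding yolk proteins. In *C. elegans* they are made in the intestine of hermaphrodites, secreted into the body cavity and taken up by growing oocytes through the receptor RME-2, which supplies the embryo with lipid and protein. Their transcription begins around the passage from the last larval stage to the adult and is among the strongest in the adult intestine. The products of *vit-1* to *vit-5* are a group of closely similar large yolk proteins, and the *vit-6* product is cut into a pair of smaller ones. Intestinal transcription of these genes depends on the GATA factor ELT-2 and on UNC-62 and CEH-60, a pair of homeodomain proteins, while MAB-3 represses it in males.

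*vit-1* to *vit-5* lay on chromosome X and *vit-6* lay on chromosome IV (Ensembl 115 annotation, WBcel235 assembly). *vit-3* (F59D8.1, minus strand, chrX:3567355-3572549) and *vit-4* (F59D8.2, minus strand, chrX:3558769-3563965) were neighbours, 3389 bp apart, and *vit-5* (C04F6.1, plus strand, chrX:3403471-3408603) lay 150165 bp from *vit-4*. *vit-2* (C42D8.2, plus strand) spanned chrX:5101042-5106169, *vit-1* (K09F5.2, plus strand) chrX:7727889-7733168 and *vit-6* (K07H8.6, plus strand) chrIV:8261157-8266459. The summed exon lengths were alike, from 4870 bp in *vit-5* to 5088 bp in *vit-1*. Exon structure split the family. Exon 2 measured 285 bp in each of *vit-1* to *vit-5*. *vit-3*, *vit-4* and *vit-5* had 6 exons and shared the lengths of exon 3 (3038 bp), exon 4 (229 bp) and exon 5 (136 bp). *vit-1* and *vit-2* had 5 exons, with an exon 3 of 3186 and 3180 bp and an exon 4 of 247 bp in both. *vit-6* had 2 annotated transcripts, with 5064 bp of exon over both. In K07H8.6a.1, the transcript whose exons were measured, no length matched these and exon 3 held 3948 bp. Members of the *vit-3*, *vit-4* and *vit-5* group, and *vit-1* with *vit-2*, are near-identical in sequence over long stretches, so reads could have been divided between them in the counting and the values of single members of these groups are uncertain. Whether the counting used strand is not stated. The genes annotated on the opposite strand of *vit-2*, *vit-3* and *vit-4* had at most 13 counts in any library.

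Total counts ranged from 15949889 to 21418277 per library. Counts of the targeted gene did not follow the strain label: *osm-9* had 14 to 36 counts in the N2 libraries and 25 to 50 in those labelled *osm-9(ok1677)*, and its fitted level was higher in the latter at 51 mM NaCl (log2 fold change 1.37, SE 0.35, adjusted p = 0.0299, edgeR quasi-likelihood test with Benjamini-Hochberg adjustment). Reads outside the deleted part would not show a deletion, so strain is known here from the labels alone. Libraries labelled *osm-9(ok1677)* are called *osm-9(ok1677)* libraries in what follows. In whole worms, fewer cells of a type and less RNA per cell cannot be told apart.

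The 6 vitellogenins together took up to 4.25% of a library's counts, and *vit-6* and *vit-2* were among the most counted loci of these worms. In N2 worms the 6 loci took 4.25% and 3.82% of all counts at 51 mM NaCl and 4.22% and 3.39% at 200 mM, in replicates 1 and 2 respectively. In *osm-9(ok1677)* worms the share in replicates 1 to 4 was 3.09%, 1.47%, 0.935% and 3.22% at 51 mM and 3.60%, 1.51%, 0.839% and 3.02% at 200 mM. Replicates 2 and 3 of *osm-9(ok1677)* stood well below every other library at both concentrations, and replicates 1 and 4 lay near or within the range of N2. The mean share was 4.03% ± 0.307 (SD, n = 2) for N2 at 51 mM NaCl and 2.18% ± 1.15 (SD, n = 4) for the mutant. At 200 mM it was 3.81% ± 0.587 for N2 and 2.24% ± 1.28 for the mutant, with a wider spread among the mutant libraries both times. *vit-6* was the most counted locus of all 41420 in each N2 library and *vit-2* the second. In the *osm-9(ok1677)* libraries *vit-6* ranked between 1 and 8 and *vit-2* between 2 and 19. The lowest places by count of *vit-5*, *vit-1*, *vit-3* and *vit-4* were 192, 209, 1650 and 1970, all in *osm-9(ok1677)* replicate 3.

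**Figure D1:**
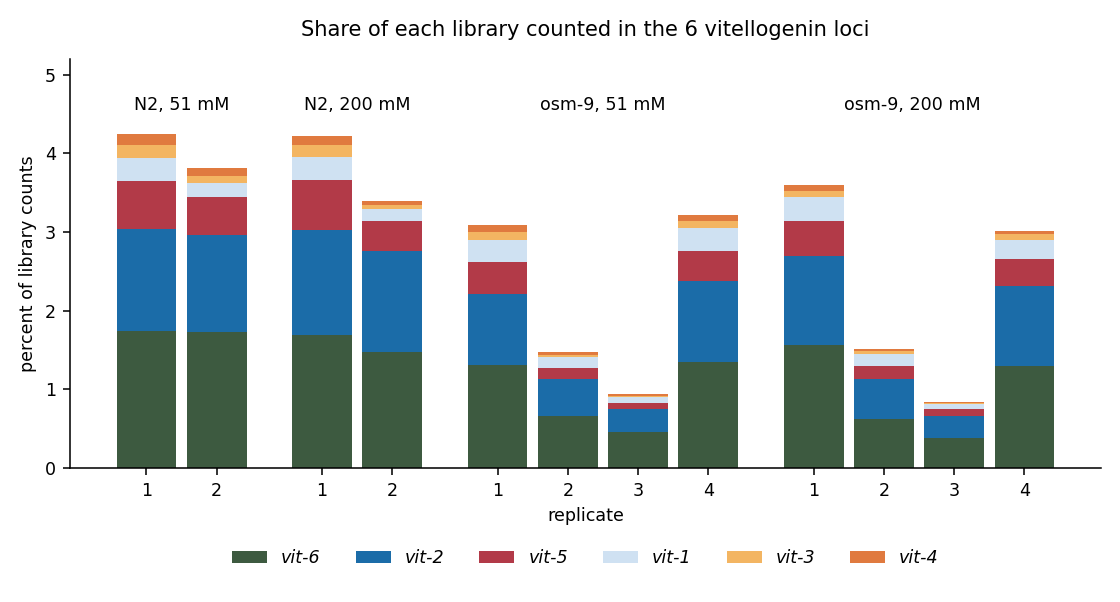
Percent of each library's counts (y axis) that fell in each of the 6 vitellogenin loci, stacked, for each replicate (x axis) of the 4 groups. The bars of *osm-9(ok1677)* replicates 2 and 3 reach 0.839% to 1.51%, and those of every other library 3.02% to 4.25%.

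Levels are given as CPM after TMM scaling, so that libraries of unequal depth can be compared, and are compared between genes only per kb of exon. The order of the members was nearly fixed. Per kb, *vit-6* was above *vit-2*, *vit-2* above *vit-5*, *vit-5* above *vit-1* and *vit-1* above *vit-3* in 12 of 12 libraries, and *vit-3* was above *vit-4* in 11 of 12. In N2 at 51 mM NaCl the means per kb were 3574 ± 58.8 CPM for *vit-6*, 2682 ± 128 for *vit-2*, 1173 ± 208 for *vit-5*, 481 ± 174 for *vit-1*, 278 ± 123 for *vit-3* and 260 ± 65.3 for *vit-4* (SD, n = 2). *vit-3* and *vit-4* did not differ beyond their spread. The SDs of *vit-1* and *vit-3* also overlapped, although within each library *vit-1* was 1.66 to 5.79 times *vit-3* per kb.

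*vit-6*, the locus whose product is cut into smaller yolk proteins, was at 18308 and 17887 CPM in N2 replicates 1 and 2 at 51 mM NaCl and at 16836 and 16013 CPM at 200 mM. In *osm-9(ok1677)* replicates 1 to 4 it was at 12168, 6590.2, 4581 and 14051 CPM at 51 mM and at 15424, 5924, 3665 and 12827 CPM at 200 mM. Every *osm-9(ok1677)* library was below both N2 libraries of the same concentration, replicate 1 at 200 mM by the least. The 4 N2 values spanned a factor of 1.14 and the 8 *osm-9(ok1677)* values a factor of 4.21.

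*vit-2*, the most counted of the large yolk protein genes, was at 13680.0 and 12790.2 CPM in N2 replicates 1 and 2 at 51 mM NaCl and at 13317 and 13963 CPM at 200 mM. Replicates 1 to 4 of *osm-9(ok1677)* had 8452, 4602, 2881 and 10693 CPM at 51 mM and 11069, 4860, 2720.2 and 10097 CPM at 200 mM. The strains did not overlap at either concentration. N2 values spanned a factor of 1.09, the smallest spread of the 6 members in that strain.

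*vit-5* was at 6426 and 4995 CPM in N2 replicates 1 and 2 at 51 mM NaCl and at 6294 and 4164 CPM at 200 mM. Replicates 1 to 4 of *osm-9(ok1677)* had 3814, 1414, 801 and 3956 CPM at 51 mM and 4441, 1623, 770 and 3416 CPM at 200 mM. The strains were separate at 51 mM, while at 200 mM *osm-9(ok1677)* replicate 1 was above N2 replicate 2.

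*vit-1* was at 3073 and 1824 CPM in N2 replicates 1 and 2 at 51 mM NaCl and at 2947 and 1624 CPM at 200 mM. In *osm-9(ok1677)* replicates 1 to 4 it was at 2589, 1302, 708 and 2999 CPM at 51 mM and at 2908, 1383, 672 and 2452 CPM at 200 mM. Here replicates 1 and 4 of the mutant lay within the N2 range and replicates 2 and 3 below it, so the strains overlapped at both concentrations. *vit-1* was the only member for which an *osm-9(ok1677)* library exceeded the N2 mean of its concentration, and replicates 1 and 4 did so at both, at 106% to 127% of that mean.

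*vit-3* was at 1796 and 939 CPM in N2 replicates 1 and 2 at 51 mM NaCl and at 1450.1 and 545 CPM at 200 mM. The mutant libraries, replicates 1 to 4, had 983, 356, 168 and 1051 CPM at 51 mM and 853, 349, 112 and 679.7 CPM at 200 mM. The strains overlapped, since replicates 1 and 4 of the mutant were above N2 replicate 2 at both concentrations.

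*vit-4* was at 1512 and 1056 CPM in N2 replicates 1 and 2 at 51 mM NaCl and at 1178 and 515 CPM at 200 mM. The mutant libraries, replicates 1 to 4, had 756, 294, 141 and 746 CPM at 51 mM and 676, 289, 96.2 and 498 CPM at 200 mM. The strains were separate at 51 mM and overlapped at 200 mM. The smallest raw count of any member in any library, 1902 in *osm-9(ok1677)* replicate 3 at 200 mM NaCl, belonged to *vit-4*.

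**Figure D2:**
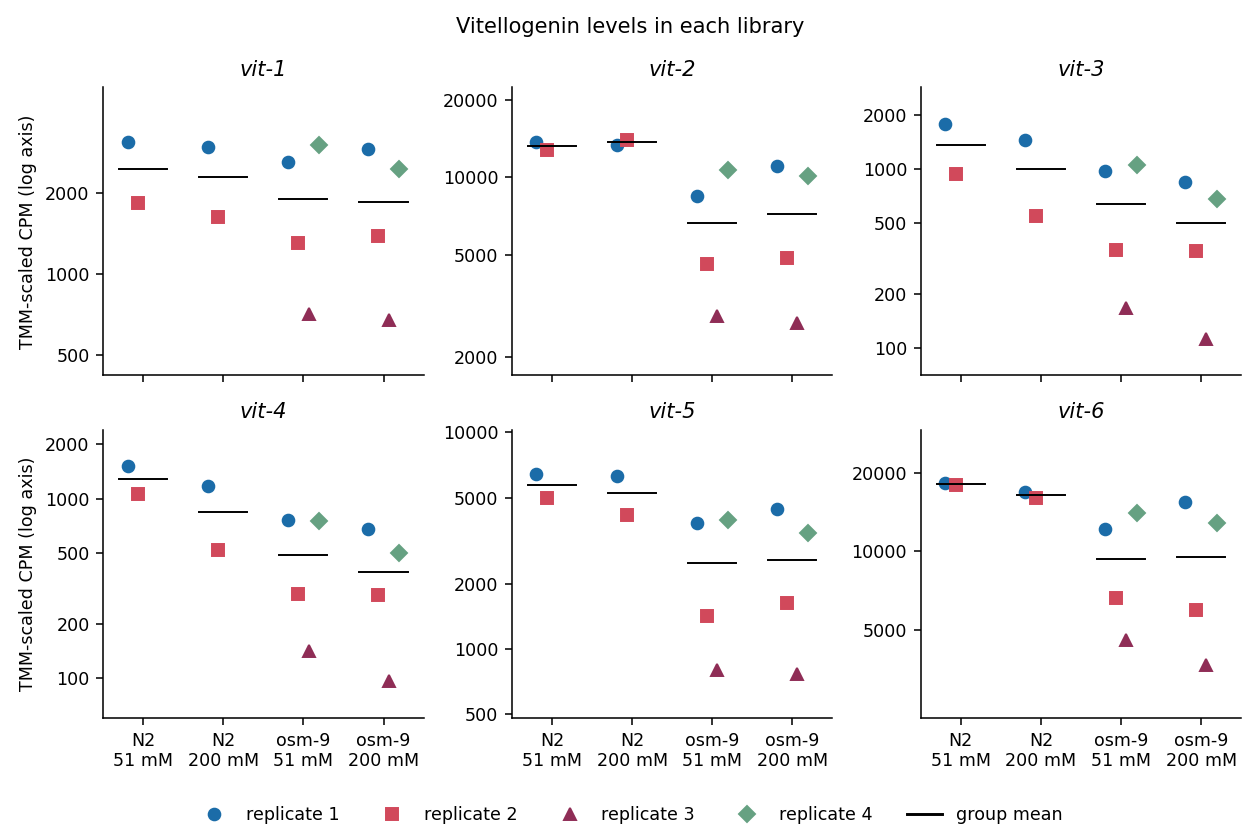
TMM-scaled CPM of each vitellogenin locus (y axes, log scale, 1 panel a locus) in each library, by group (x axis). Symbols mark replicates 1 to 4 and the bar is the group mean; *osm-9(ok1677)* replicates 2 and 3 are the lowest points of their group in every panel.

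The first comparison asked whether yolk gene expression differed between *osm-9(ok1677)* and N2 worms. At 51 mM NaCl all 6 fitted differences were below 0, with a median of -1.04 on the log2 scale against 0.05 over all loci tested, where 45.6% of loci were below 0. None of the 6 was called at an adjusted p of 0.05 or less, against 12.3% of all loci (edgeR quasi-likelihood test, Benjamini-Hochberg adjustment). Before adjustment, 0 of 6 were under the 0.05 threshold. DESeq2 and edgeR's exact test also called 0, and each had 1 member that reached p = 0.05 before adjustment. *vit-4* had the lowest value, -1.41 (SE 0.71, 95% interval -2.95 to 0.14, adjusted p = 0.211), and *vit-1* the highest, -0.37 (SE 0.60, -1.68 to 0.95, adjusted p = 0.736). Between them lay *vit-5* at -1.19 (SE 0.66), *vit-3* at -1.10 (SE 0.77), *vit-2* at -0.99 (SE 0.53) and *vit-6* at -0.95 (SE 0.52), with adjusted p from 0.242 to 0.375. Every interval included 0, and the lower bounds ran from -2.95 to -1.68. *vit-2*, *vit-4*, *vit-5* and *vit-6*, 4 of 6, did not overlap between the strains, which held in this direction for 15.2% of all loci.

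At 200 mM NaCl the 6 differences were again below 0, with a median of -0.96 against 0.05 over all loci, 44.2% of which were below 0, and 0 of 6 were called, against 6.43% of loci. Before adjustment 0 of 6 were under the 0.05 threshold, against 23.9% of loci. The fitted values were -0.30 for *vit-1*, -0.92 for *vit-2*, -1.0 for *vit-3*, -1.12 for *vit-4*, -1.03 for *vit-5* and -0.80 for *vit-6* (adjusted p 0.33 to 0.822, edgeR quasi-likelihood test). DESeq2 and edgeR's exact test called 0, against 11.8% and 10.1% of loci respectively, with 0 members at p = 0.05 or less before adjustment. Without *osm-9(ok1677)* replicates 2 and 3 the value of *vit-1* was 0.11 at 51 mM and 0.18 at 200 mM. Without N2 replicate 1 of the same concentration it was 0.055 at 51 mM and 0.19 at 200 mM, so its direction depended on that library too. That library also moved *vit-3*, to -0.56 at 51 mM and -0.13 at 200 mM, and *vit-4*, to -0.40 at 200 mM, and 0 members were called without it. *vit-2* and *vit-6*, 2 of 6, did not overlap between the strains, against 16.8% of all loci. The order of the members was alike in both, with *vit-4* lowest and *vit-1* nearest 0.

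The comparison changed when the replicate number was fitted as a block. With it, 5 of 6 members, all but *vit-1*, were called lower in *osm-9(ok1677)* at 51 mM NaCl, where 1704 of all 15403 loci were called lower and 26.3% in either direction, and the same 5 at 200 mM, where 9.37% were called lower and 19.1% in either direction. The blocked log2 fold changes at 51 mM were -1.32 for *vit-4* (adjusted p = 0.000539), -1.21 for *vit-5* (adjusted p = 0.00319), -1.02 for *vit-3* (adjusted p = 0.00108), -1.0 for *vit-2* (adjusted p = 0.0118) and -0.94 for *vit-6* (adjusted p = 0.0223, edgeR with the block). The values themselves moved little from those without the block. N2 has replicates 1 and 2 only, so the blocked difference between strains rests on these numbers, and the labels do not say that a shared number marks a shared culture or day.

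**Figure D3:**
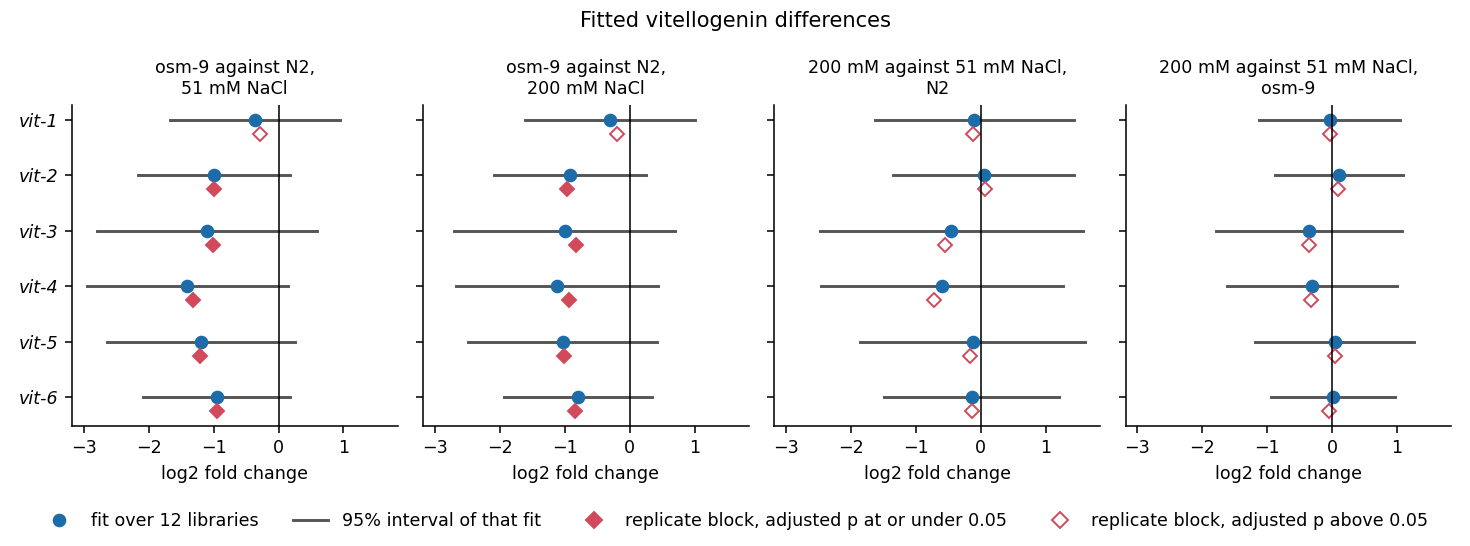
Fitted log2 fold change (x axes) of each vitellogenin locus (y axis) in the 4 comparisons: circles with 95% intervals come from the fit over 12 libraries, diamonds from the fit with the replicate block, filled where the adjusted p is 0.05 or less. The circles of the strain comparisons lie between -1.41 and -0.30, every interval crosses 0, and 5 of 6 diamonds are filled in both.

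The *osm-9(ok1677)* libraries were spread widely. Replicates 2 and 3 were both below replicates 1 and 4 at both concentrations in 6 of 6 members, a pattern seen in 17.7% of all loci, and replicate 3 was the lowest of its group in 6 of 6 at both, against 18.3%. The split was taken from these levels, and the members moved together (Pearson's r between pairs 0.88 to 0.99). These counts are therefore a description, and the members are not separate observations. Replicate 3 held *vit-4* at 11% of the N2 mean at 51 mM NaCl and *vit-3* at 12.3%, but *vit-6* at 25.3% and *vit-1* at 28.9%. In replicate 1 at the same concentration the 6 members were at 58.9% (*vit-4*) to 106% (*vit-1*) of the N2 mean. Over the 8 *osm-9(ok1677)* libraries the highest value was 9.35 times the lowest for *vit-3*, 7.85 for *vit-4*, 5.77 for *vit-5*, 4.46 for *vit-1* and 4.07 for *vit-2*. Of 8689 loci with a mean of at least 10 CPM and a count in every library, between 0.725% (*vit-3*) and 3.04% (*vit-6*) had a larger SD of log2 CPM over these libraries than the member, where the median SD of all was 0.21. Without replicates 2 and 3 of *osm-9(ok1677)*, which were singled out with their levels known, 0 of 6 members were called in either strain comparison. Of all loci, 17.0% were called in either direction at 51 mM in this fit and 14.1% at 200 mM. Before adjustment, 4 of 6 members were under the 0.05 threshold at 51 mM and 0 of 6 at 200 mM. The share of all loci at that level was not computed for this fit, so these counts are a description as well. The fitted values ran from -0.85 (*vit-4*) to 0.11 (*vit-1*) at 51 mM and from -0.58 to 0.18 at 200 mM.

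In N2 the members split in how far the replicates differed. *vit-2* and *vit-6* were close in both replicates at both concentrations, by the CPM given above. *vit-1*, *vit-3*, *vit-4* and *vit-5* were further apart, lower in replicate 2, and their highest N2 value was 1.89, 3.29, 2.93 and 1.54 times the lowest. The 4 loci that varied more within N2 included the *vit-3*, *vit-4* and *vit-5* group of shared exon lengths, and *vit-1* varied more than *vit-2*, its closest counterpart in exon lengths.

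The makeup of the vitellogenin counts differed between libraries. *vit-6* made up 40.1% to 49.4% of the counts of the 6 loci and *vit-2* 29.4% to 37.9%. *vit-1* made up 6.86% and 7.01% in N2 replicate 1 and 4.41% and 4.62% in N2 replicate 2, below the 7.63% to 9.59% of the 8 *osm-9(ok1677)* libraries. *vit-5* made up 11.3% to 15% in N2, 11.4% to 13.3% in *osm-9(ok1677)* replicates 1 and 4, and 8.63% to 11.2% in replicates 2 and 3. *vit-1* was the member whose share was higher in every *osm-9(ok1677)* library than in every N2 library, and the shares of *vit-2* and *vit-6* overlapped between the strains.

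Pairs of members differed in how closely they moved. The ratio of *vit-2* to *vit-6* spanned a factor of 1.39 over the 12 libraries, the narrowest of the 15 pairs, although these genes lie on different chromosomes and differ in exon structure. The ratio of *vit-3* to *vit-4*, adjacent genes with 4 exon lengths in common, spanned 1.58. The widest span was 4.05, for *vit-1* against *vit-4*. *vit-2* to *vit-1*, alike in exons 2 and 4, spanned 2.63, with *vit-2* at 3.26 to 4.12 times the counts of *vit-1* in the *osm-9(ok1677)* libraries, 4.45 and 4.52 times in N2 replicate 1, and 7.01 and 8.60 times in N2 replicate 2.

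The second comparison asked whether 6 h of hypertonic stress altered yolk gene expression. No member was called in either strain. In N2 the fitted log2 differences between 200 and 51 mM NaCl ran from -0.60 for *vit-4* (SE 0.85, 95% interval -2.46 to 1.26) to 0.04 for *vit-2* (SE 0.64, -1.35 to 1.43), with a median of -0.13 against 0.02 over all loci. In *osm-9(ok1677)* they ran from -0.36 for *vit-3* (SE 0.65, -1.79 to 1.07) to 0.11 for *vit-2* (SE 0.45, -0.87 to 1.09), with a median of -0.01 against -0.01 over all loci. The adjusted p was 1.0 for each member in both strains (edgeR quasi-likelihood test). Before adjustment 0 of 6 reached p = 0.05 in either strain, and DESeq2 and the exact test gave 0 called and 0 at that level too. Of all loci 0.195% were called in N2 and 0.351% in *osm-9(ok1677)*. In N2 all 6 intervals extended past a log2 change of 1 in both directions, and in *osm-9(ok1677)* the narrowest, of *vit-6*, ran from -0.93 to 0.97.

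Same-numbered libraries were also compared pair by pair. *vit-3* and *vit-4* were lower at 200 mM in 6 of 6 such pairs, 2 of N2 and 4 of *osm-9(ok1677)*, which was so for 5.61% of all loci. For *vit-3* the log2 difference was -0.31 and -0.78 in N2 replicates 1 and 2 and -0.20, -0.03, -0.58 and -0.63 in *osm-9(ok1677)* replicates 1 to 4, with a median of -0.44. For *vit-4* it was -0.36 and -1.03 in N2 and -0.16, -0.03, -0.56 and -0.58 in *osm-9(ok1677)*, with a median of -0.46. These neighbouring genes gave nearly the same values pair by pair except in N2 replicate 2. Reads could have been divided between them in the counting, so they are not separate observations. The other members showed no common direction: *vit-2* was lower in 3 of 6 pairs, *vit-1* and *vit-5* in 4 and *vit-6* in 5, with medians from -0.14 to 0.02. With a block for the replicate within each strain, 0 of 6 were called in either strain, and the lowest adjusted p was 0.0549 (*vit-4* in N2, log2 fold change -0.70, edgeR quasi-likelihood test), where 3.25% of loci were called in N2 and 5.19% in *osm-9(ok1677)*. Before adjustment 2 of 6 were under the 0.05 threshold in each strain. The share of all loci at that level was not computed for this fit, so these counts are a description.

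**Figure D4:**
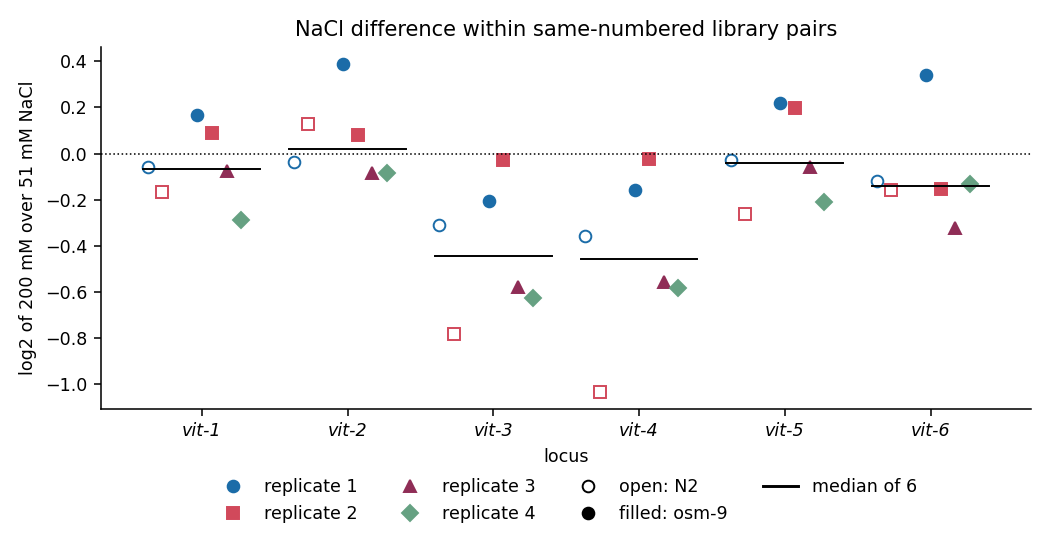
Log2 of the level at 200 mM over that at 51 mM NaCl (y axis) in each same-numbered pair of libraries, for each vitellogenin locus (x axis), with N2 open, *osm-9(ok1677)* filled and the median of the 6 pairs as a bar. All 6 points lie below 0 for *vit-3* and *vit-4*, and points lie on both sides of 0 for the other members.

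The difference between the strains in the response to NaCl was tested as an interaction. No member was called (adjusted p 1.0 each by edgeR, with 0 of 6 under the 0.05 threshold before adjustment, and likewise 0 and 0 with DESeq2), and 0.00649% of all loci were. Before adjustment, 1.8% of all loci were under the 0.05 threshold by edgeR. The fitted values ran from 0.06 for *vit-1* (95% interval -1.82 to 1.94) to 0.29 for *vit-4* (-1.98 to 2.56).

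Genes known to act on vitellogenin transcription were measured alongside. The list held 17 genes, among them the intestinal activators, the insulin pathway (*daf-2*, *age-1*, *akt-1*, *daf-16*, *sgk-1*), TGF-beta signalling (*dbl-1*, *sma-3*) and developmental timing genes (*lin-14*, *lin-28*, *lin-29*). All 17 were tested and 0 were called in any comparison, with median log2 differences of 0.32 at 51 mM and 0.15 at 200 mM NaCl for *osm-9(ok1677)* against N2, where that of all loci was 0.05 at both. The lowest of those named by rule was *ceh-60*, the PBX-type homeodomain activator, at 24.1 ± 8.58 CPM (SD, n = 2) in N2, compared with 15.4 ± 2.71 (SD, n = 4) in *osm-9(ok1677)* at 51 mM NaCl (log2 fold change -0.64, SE 0.24, adjusted p = 0.107) and -0.71 (SE 0.24, adjusted p = 0.103) at 200 mM, by edgeR. *elt-2*, the GATA factor of the intestine, was at 18.4 ± 5.73 and 13.6 ± 3.11 CPM at 51 mM (log2 fold change -0.44, SE 0.25, adjusted p = 0.275, edgeR). *unc-62*, the Meis-type partner of CEH-60, was at 40.5 ± 8.08 and 35.4 ± 3.87 CPM at 51 mM (log2 fold change -0.19, SE 0.20). *lin-29*, a zinc finger factor of the larval-to-adult switch that acts on *vit* genes from outside the intestine, was at 9.88 ± 6.44 and 15.2 ± 4.69 CPM at 51 mM (log2 fold change 0.62, SE 0.41, adjusted p = 0.346, edgeR).

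Of 13 genes of yolk secretion and uptake, 3 rose in *osm-9(ok1677)* at 51 mM NaCl, where 7.64% of all loci were called higher, and 0 were called in the other comparisons. The median of the list was 0.15 at 51 mM and 0.04 at 200 mM. Called were *rme-6* (log2 fold change 0.64, SE 0.16, adjusted p = 0.0289), *dyn-1* (0.41, SE 0.11, adjusted p = 0.0327) and *rab-5* (0.41, SE 0.12, adjusted p = 0.0475) by edgeR. *rme-6* encodes an activator of RAB-5, *dyn-1* encodes dynamin and *rab-5* a GTPase of early endosomes, and all serve endocytosis in many tissues. The yolk receptor gene *rme-2* was at 265 ± 97.8 CPM (SD, n = 2) in N2, compared with 252 ± 97.0 (SD, n = 4) in *osm-9(ok1677)* at 51 mM (log2 fold change -0.07, SE 0.46, adjusted p = 0.941, edgeR). Among the *osm-9(ok1677)* libraries at 51 mM its lowest value was 122 CPM and its highest 327, and at 200 mM these were 129 and 347. *dsc-4*, the microsomal triglyceride transfer protein that loads lipid in yolk secretion, was at 128 ± 56.4 and 107 ± 16.8 CPM (log2 fold change -0.26, SE 0.29).

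Markers of other tissues and stages were summed in each library, and their part in the vitellogenin differences was not tested. Genes of the molting cycle, many of them expressed in the larval epidermis before a molt, summed to 286 and 304 CPM in N2 at 51 mM NaCl and 381 and 549 CPM at 200 mM. In *osm-9(ok1677)* replicates 1 to 4 their sum was 797, 1574, 1677 and 711 CPM at 51 mM and 418, 897, 1433 and 599 CPM at 200 mM. The 4 libraries with the least vitellogenin, replicates 2 and 3 of *osm-9(ok1677)*, were the 4 with the most molting transcripts. Of the 18 genes listed, 9 were called higher and 0 lower in *osm-9(ok1677)* at 51 mM (median log2 fold change 2.43), where 7.64% of all loci were called higher. At 200 mM 3 were called higher, *fbn-1*, *noah-2* and *let-653*, and 0 lower (median 1.12), where 4.13% of all loci were called higher.

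Oocyte and eggshell genes gave a different order of libraries. The 12 genes summed to 4431 and 2622 CPM in N2 replicates 1 and 2 at 51 mM NaCl and 4848 and 2736 CPM at 200 mM. In *osm-9(ok1677)* replicates 1 to 4 they summed to 4169, 2875, 1649 and 4452 CPM at 51 mM and 4395, 3593, 1711 and 4275 CPM at 200 mM. The lowest sums were in *osm-9(ok1677)* replicate 3, as for the yolk genes, while N2 replicate 2 was lower than N2 replicate 1, as for *vit-1*, *vit-3*, *vit-4* and *vit-5*. None of the 12 was called in either strain comparison.

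Intestinal genes other than *vit* were lower at the median in *osm-9(ok1677)* than in N2, with a median log2 fold change of -0.37 at 51 mM NaCl and -0.35 at 200 mM, against 0.05 over all loci at both. The 10 listed genes, which include *ges-1*, *ifb-2*, *act-5* and *pept-1*, summed to 3957 to 6998 CPM in N2 and 3139 to 4766 CPM in *osm-9(ok1677)*. Replicates 2 and 3 of *osm-9(ok1677)* lay at 4446 and 4707 CPM at 51 mM and 4194 and 4766 CPM at 200 mM, within the 3139 to 4543 CPM of replicates 1 and 4 or above it. A single gene, the aspartic protease gene *asp-1*, made up much of these sums, at 2315 ± 564 CPM (SD, n = 4) in *osm-9(ok1677)* at 51 mM. By the mean log2 CPM of the 10 genes, which gives each the same weight, *osm-9(ok1677)* replicates 1 to 4 were at 6.84, 7.06, 7.22 and 6.84 at 51 mM and at 7.11, 7.04, 7.29 and 6.98 at 200 mM, so replicate 3, the lowest in vitellogenin, was the highest of its group. All 10 markers were detected, and 1 fell at 51 mM, *pho-1*, an intestinal acid phosphatase (log2 fold change -0.76, SE 0.19, adjusted p = 0.0246, edgeR), where 4.63% of loci were called lower. Sperm genes summed to 416 to 498 CPM in N2 and 214 to 432 CPM in *osm-9(ok1677)*, with 2 of 9 called lower at 51 mM, against the same 4.63% of loci. Their sums in *osm-9(ok1677)* replicates 1 to 4 were 214, 432, 332 and 227 CPM at 51 mM and 236, 344, 321 and 229 CPM at 200 mM. Replicates 2 and 3 were thus above replicates 1 and 4. In body wall muscle 0 of 4 were called, and in neurons 1 of 6 was higher at 51 mM, *unc-31*, where 7.64% of all loci were called higher.

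**Figure D5:**
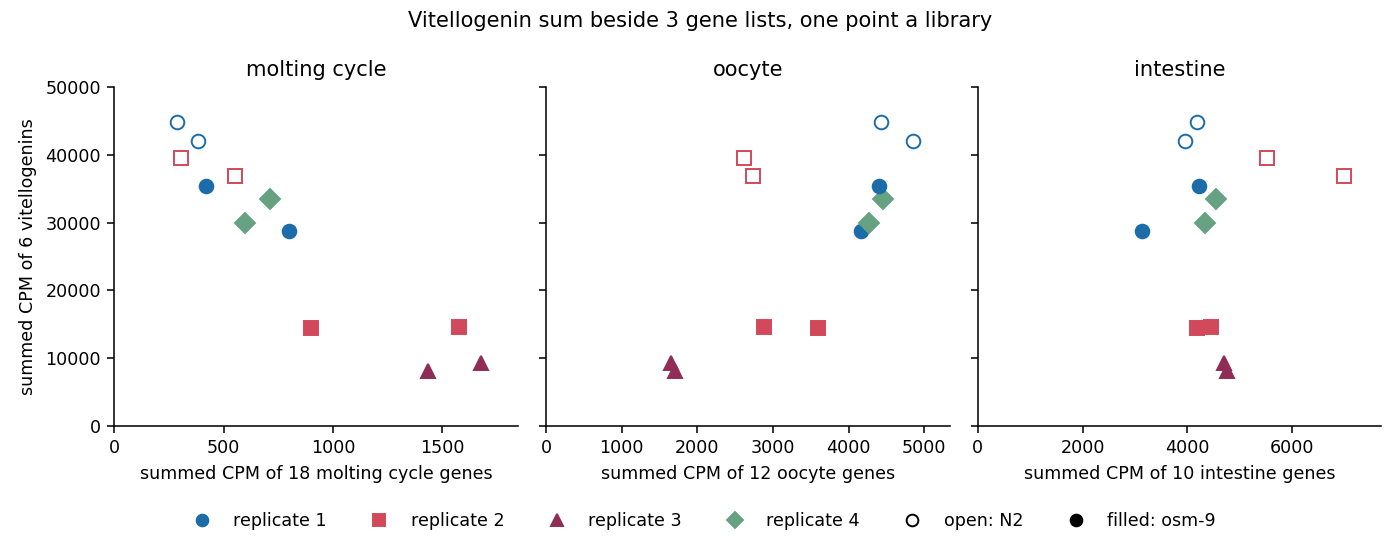
Summed CPM of the 6 vitellogenins (y axis) against the summed CPM of the molting cycle, oocyte and intestine lists (x axes), 1 point a library, with N2 open and *osm-9(ok1677)* filled. The 4 libraries with the lowest vitellogenin sums, from 8036 to 14558 CPM, have the 4 highest molting sums and intestine sums of 4194 to 4766 CPM.

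A pair of genes for adult cuticle collagens was measured as a marker of the passage to adulthood. *col-7* was lower in *osm-9(ok1677)* at 51 mM NaCl (log2 fold change -1.36, SE 0.32, adjusted p = 0.0208) and at 200 mM (-1.35, SE 0.32, adjusted p = 0.032, edgeR quasi-likelihood test), with 92.9 ± 20.5 CPM (SD, n = 4) against 239 ± 115.1 (SD, n = 2) at 51 mM. *col-19* was at 1916 ± 616 and 2469 ± 105 CPM at 51 mM and was not called (log2 fold change -0.37, SE 0.25, adjusted p = 0.361, edgeR). The mean log2 CPM of the pair in *osm-9(ok1677)* replicates 1 to 4 was 8.46, 8.70, 8.72 and 8.86 at 51 mM. At 200 mM it was 8.63, 8.52, 8.40 and 8.55. Replicates 2 and 3 thus lay between replicates 1 and 4 at 51 mM and slightly below both at 200 mM.

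Among 8683 other loci with a mean of at least 10 CPM and a count in every library, those whose log2 levels over the 12 libraries were most like the mean of the 6 members were *perm-4* (Pearson's r 0.96), C39D10.7 (0.96), *ule-3* (0.96), *cey-3* (0.96) and B0513.4 (0.96). The points share their libraries, and *osm-9(ok1677)* replicates 2 and 3 lie apart from the others, so these values are a description. *perm-4* acts in the permeability barrier of the eggshell and *cey-3* encodes a Y-box RNA-binding protein of the germ line. At 51 mM NaCl *perm-4* was at 489 ± 130 CPM (SD, n = 2) in N2, compared with 318 ± 121 (SD, n = 4) in *osm-9(ok1677)*. Its lowest value in *osm-9(ok1677)* was 202 CPM at 51 mM and 185 CPM at 200 mM.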

How the data were processed

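Poly(A)+ TruSeq libraries of whole worms were sequenced with paired reads by the authors, who aligned them with TopHat 1.4.1 to the WS235 assembly, assigned them to Ensembl 71 genes with Cufflinks 2.0.1 and deposited whole-number counts per locus for 12 libraries, without normalization. Strain, NaCl concentration and replicate came from the submitters' labels, and every value column was used. Of 21204 loci with a count in some library, filterByExpr (at least 10 counts, total of at least 15) left 15403. TMM scaling was followed by a quasi-likelihood fit over all 12 libraries in edgeR 4.0.16 (R 4.3.3), with 1 mean per group. All tests were two-sided, Benjamini-Hochberg adjustment ran over the loci tested, and a locus was called at an adjusted p of 0.05 or less. SEs were the log2 fold change divided by the square root of F, and 95% intervals used the t distribution with the moderated degrees of freedom. Levels per kb used the summed exon length of Ensembl 115 (WBcel235). Total counts were 15949889 to 21418277.

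Replicate numbers were checked as pairs: in the 10 same-numbered pairs of libraries compared, deviations from the group means correlated over loci with r from 0.19 to 0.81. Between strains r was 0.19 to 0.47. Between concentrations it was 0.52 to 0.81 in *osm-9(ok1677)* and 0.52 in N2, whose pairs give the same value because each N2 group has 2 libraries. Pairs with different numbers were not compared, so these values do not show that a number marks a shared culture or day. The fit with the number as a block is given as well. Alternatives were RLE factors, other filters, DESeq2 1.42.0, edgeR's exact test, fits to 2 groups, the block, and leaving out libraries. The code was tested on simulated data. The members and gene lists were chosen with earlier results of these data known. Named were the 6 members, called genes of the regulator and uptake lists with *rme-2*, *elt-2*, *unc-62*, *ceh-60* and *lin-29*, *col-7*, *col-19*, *osm-9* and the 5 most similar loci. *dsc-4*, *fbn-1*, *noah-2*, *let-653*, *pho-1*, *asp-1* and *unc-31* were added after their values were seen.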

Additional observations from a re-analysis of the deposited data

How the results depend on the processing

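The count of 0 called members held in all 5 comparisons with RLE factors, either other filter, DESeq2 and each library left out in turn, and in the 4 comparisons other than the interaction with edgeR's exact test and fits to 2 groups, where the interaction was not run. Over the fits with 1 library left out, adjusted p for the strain comparisons ran from 0.117 to 0.977 at 51 mM and from 0.237 to 0.96 at 200 mM NaCl. The replicate block gave 5 called at 51 mM and 5 at 200 mM NaCl and changed no other call. Leaving out *osm-9(ok1677)* replicates 1 and 4 gave 4 called at 51 mM, where 14.2% of all loci were called and 4.07% called lower. At 200 mM it gave 3, where 4.85% of all loci were called and 1.23% called lower. These libraries were picked with their levels known, so this supports nothing. Without replicates 2 and 3, 0 were called, against 17.0% of all loci at 51 mM and 14.1% at 200 mM, and *vit-1* turned to 0.11 and 0.18. The sign also turned for values near 0: for *vit-6* between concentrations in *osm-9(ok1677)*, with the replicate block (-0.043), the block within strain (-0.067) and without replicates 1 and 4 (-0.23), where *vit-1* was at 0.020 and the interaction of *vit-2* and *vit-6* at -0.036 and -0.091. With 1 library left out, the ranges that crossed 0 were, for *vit-1*, -0.76 to 0.055 and -0.73 to 0.19 in the strain comparisons. In N2 between concentrations they were -0.59 to 0.33 (*vit-1*), -0.0011 to 0.092 (*vit-2*), -1.33 to 0.088 (*vit-3*) and -0.46 to 0.14 (*vit-5*). In *osm-9(ok1677)* they were -0.34 to 0.27 (*vit-1*), -0.18 to 0.44 (*vit-2*), -0.72 to 0.025 (*vit-4*), -0.37 to 0.35 (*vit-5*) and -0.32 to 0.30 (*vit-6*). For the interaction of *vit-1* to *vit-6* they were -0.36 to 0.56, -0.22 to 0.39, -0.45 to 0.97, -0.17 to 1.0, -0.24 to 0.49 and -0.18 to 0.45. The cause of these changes was not tested. Counts of 1902 or more leave little counting error in any member, so the 2 N2 libraries per group and the spread among *osm-9(ok1677)* libraries limit precision.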
